A study of Rattus norvegicus with 35 samples.

Results

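The left ventricles of rats killed 6 days after ligation of the abdominal aorta were compared with those of sham-operated rats of the same day. The comparison holds 11 of the 35 arrays of a time course of cardiac hypertrophy that also covered days 1 and 42: 5 ligated samples, against 6 sham samples. All came from male Wistar rats, and total RNA of each left ventricle sample was hybridised to 1 array of an Illumina bead platform, on which each probe is read from many beads. The labels number the samples of a group as replicates without saying that each came from its own rat, so p-values measure the spread between these samples, which may be technical. The groups were taken from the sample titles, 1 further array of the day 6 table that matched no sample was left out, and a probe was tested where its detection p was under 0.01 on at least 5 of the 11 arrays. That left 8492 of 22523 probes, which represent 6404 named genes. The age of the rats and the degree of narrowing are not given in the sources used here, and the tissue is whole ventricle, so each value mixes muscle cells with fibroblasts, vessel cells and blood cells.

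Narrowing the abdominal aorta raises the pressure against which the left ventricle ejects. Heart muscle cells answer such a load by growing, by restarting genes of the fetal heart such as those of natriuretic peptides and fetal contractile isoforms, and by burning less fat relative to sugar. Fibroblasts and immune cells of the ventricle also respond, with deposition of matrix, complement and chemokine production and cell division.

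The day 6 arrays were the only ones of the series in which both operations lay in both sets of chip positions, A to F and G to L. Ligated 1 and 2 were at positions A and B and sham 1 to 3 at D to F, while ligated 3, 4 and 5 were at G to I and sham 4 to 6 at J to L. Within each set the ligated arrays held the earlier positions, so order within a set and operation cannot be told apart. The 75th percentile of scanner intensity ran from 185 to 375 over the ligated arrays, against 228 to 320 over the sham arrays (mean 279.8 ± 86.7, SD, n = 5, against 268 ± 35.4, n = 6; exact two-sided permutation p = 0.762 over 462 splits). The 2 brightest arrays were ligated 1 and 2, which share the A to F set. Within A to F the mean was 369.7 in ligated and 242.6 in sham arrays, and within G to L it was 219.9 and 293.5. Comparisons within a set therefore also compare arrays of unlike brightness, in opposite directions. The part of brightness in the values within a set was not tested. The share of probes detected was 37.6 ± 2.13%, against 36.9 ± 1.48% (exact permutation p = 0.528). On the first principal component, which held 41.8% of the variance, the ligated arrays lay at -47.3 to -1.5 and the sham arrays at 14.0 to 20.7, so that the groups did not overlap. The ligated arrays were far more spread than the sham arrays, however, and ligated 3 and ligated 4 correlated better with the sham arrays (mean r = 0.976 and 0.975 across probes) than with the other ligated arrays (0.968 and 0.970). Most lists of genes below are therefore given with their median within each position set and with counts of calls when single arrays were left out.

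**Figure D1:**
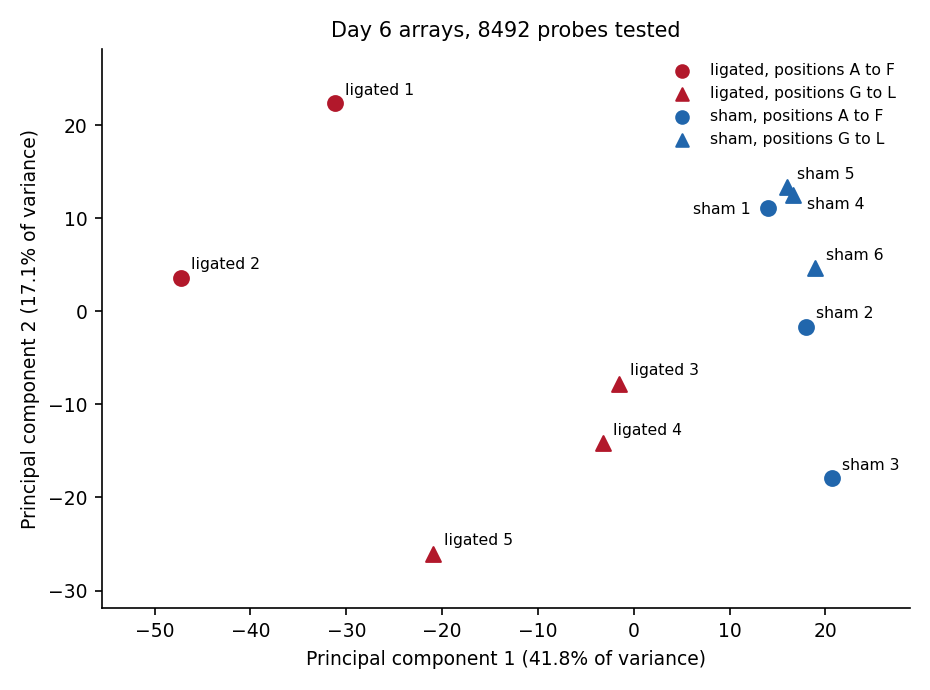
First and second principal components of the 11 day 6 arrays over the 8492 probes tested (axes in component units), with ligated arrays in red, sham arrays in blue, circles for chip positions A to F and triangles for G to L. All 5 ligated arrays lie left of all 6 sham arrays, and ligated 3 and 4 lie nearest to them.

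Of the 6404 genes, 753 passed an adjusted p under 0.05 (11.8%; limma with Benjamini-Hochberg adjustment over all probes), 381 higher in ligated ventricles (5.95%) and 372 lower (5.81%). Changes of 2-fold or more were commoner among the rises, 140 genes against 58. The median log2 fold change over all genes was -0.04, and 90% of genes lay between -0.60 and 0.70. In 300 genes (4.68%) every ligated array lay above every sham array, and in 256 (4%) every ligated array lay below. The count of called probes was 964 of 8492 (11.4%), 462 higher (5.44%) and 502 lower (5.91%). Leaving out 1 array at a time gave 536 to 1188 called probes: 632 without ligated 2, 536 without ligated 5, and 597, 604, 608, 545 and 552 without sham 1, 2, 4, 5 and 6, while 1188 came without ligated 3. The count was 1207 with the position set as a block, 651 within positions A to F alone and 528 within G to L alone. It dropped to 132 (50 higher, 82 lower) when arrays were scaled to the median of all probes in place of quantile normalization, and was 966 (427 higher, 539 lower) when they were scaled to the median of the tested probes. In the counts of list members below, "median scaling" means the first of these. The list counts are to be read beside the shares of all genes called, 5.95% higher, 5.81% lower and 11.8% either way.

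**Figure D2:**
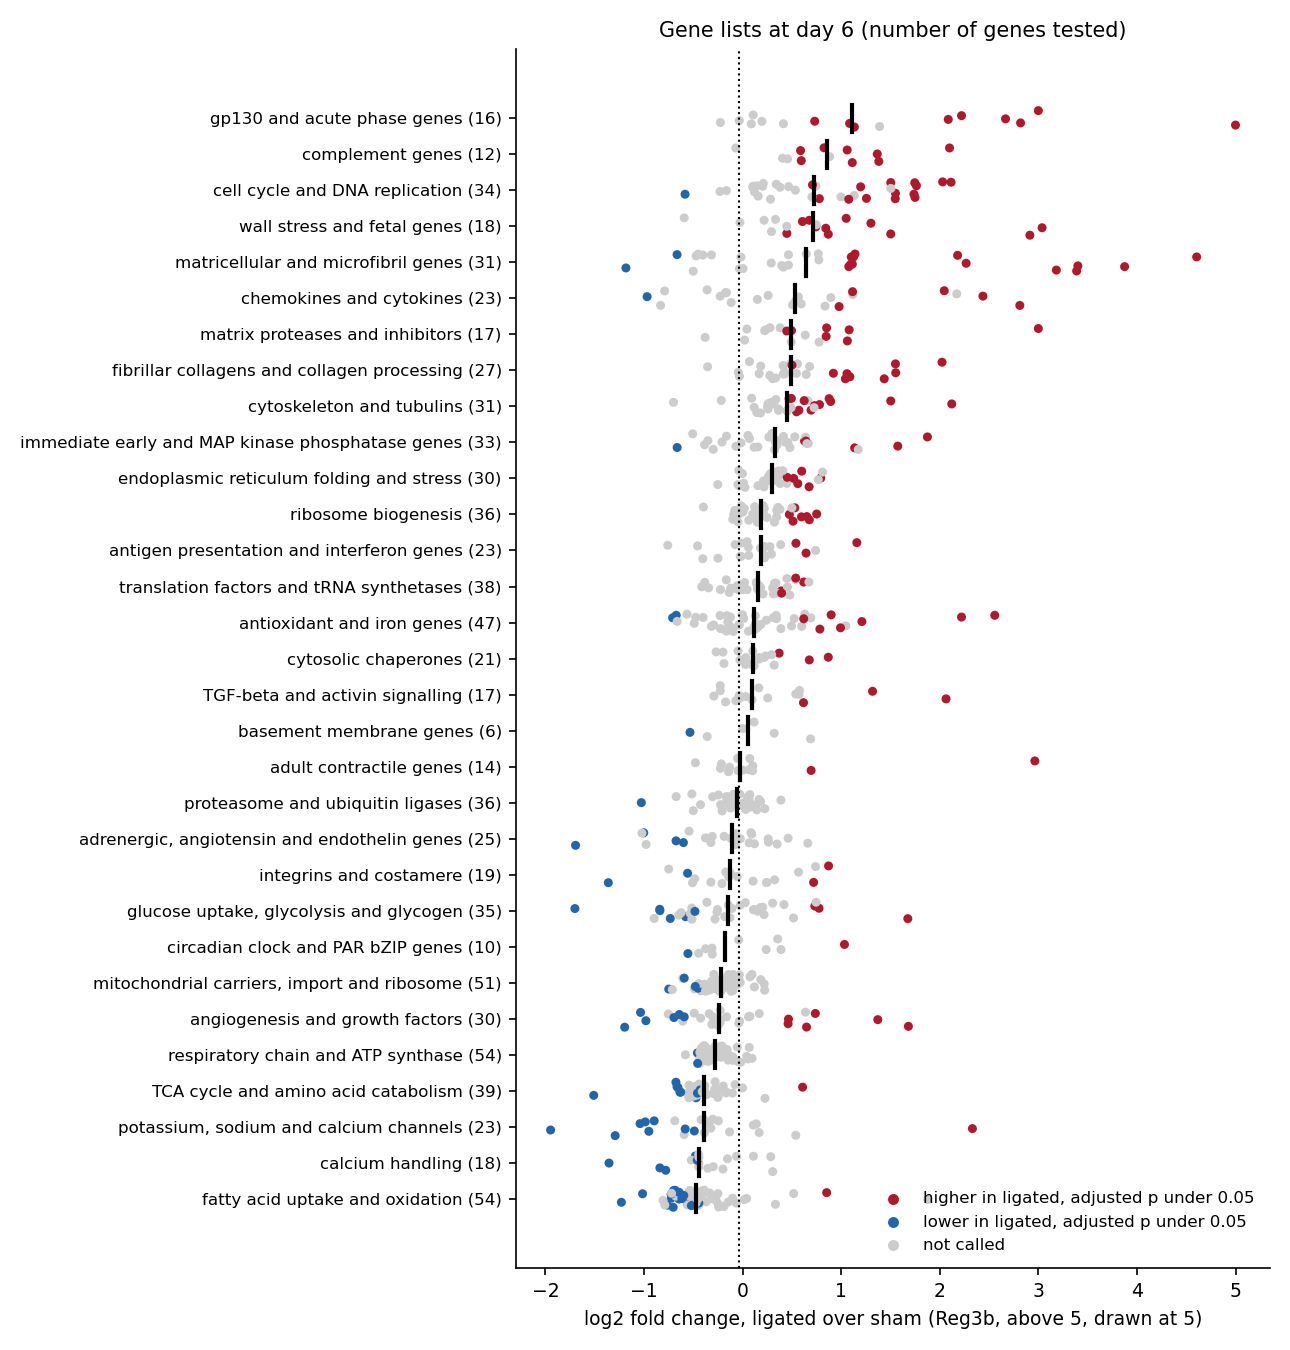
Log2 fold change (ligated over sham, x axis) of each tested gene of each pathway list, with called genes in red (higher in ligated) or blue (lower), the list median as a black bar, Reg3b drawn at 5, and the median of all genes as a dotted line. The medians run from 1.11 for gp130 and acute phase genes to -0.47 for fatty acid uptake and oxidation.

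Genes of natriuretic peptides and other wall stress responses were higher in ligated ventricles. Nppa, which encodes atrial natriuretic peptide, read 16.07, 15.83, 15.85, 15.71 and 16.03 on the log2 scale in ligated 1 to 5, against a lowest, median and highest value of 12.11, 13.16 and 13.48 in sham ventricles. The groups did not overlap (log2 fold change 2.91 ± 0.23, SE; adjusted p = 2.06e-05). The ligated values lie near the highest scanner value of any array, 16.11 on the log2 scale, so both their spread and the fold can be compressed. Nppb, the gene of brain natriuretic peptide, read 15.16, 14.59, 15.39, 15.13 and 14.93, against 14.05, 14.25 and 14.72, and rose by 0.74 ± 0.17 (adjusted p = 0.0165), with ligated 2 inside the sham range. Its values also lie toward the upper end of the scale, so this rise too can be compressed. Flnc, the muscle filamin that cross-links actin at the Z-disc, read 10.62 to 11.42 in ligated ventricles, against 9.58 to 9.86 in sham ventricles (1.30 ± 0.14, adjusted p = 0.000275). Ankrd23, a stretch-responsive ankyrin repeat gene of the sarcomere, read 8.29 to 9.31, against 5.33 to 6.32 (3.04 ± 0.24, adjusted p = 2.06e-05), and was detected on 2 of 6 sham arrays.

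Of the 18 tested members of the wall stress list, 11 rose and 0 fell, with a median of 0.71, and 3 remained called under median scaling. The list medians within positions A to F and G to L were 0.565 and 0.684. Leaving out single arrays gave 11 to 12 called members. The small heat shock genes Hspb7 and Hspb1, which guard contractile filaments, rose by 0.68 ± 0.13 and 0.87 ± 0.18. The myosin heavy chains did not pass. Myh7 read 15.32 to 16.04 in ligated ventricles and 15.23 to 16.04 in sham ventricles (0.22 ± 0.18, adjusted p = 0.45), and Myh6 read 15.39 to 15.99, against 15.36 to 15.96 (0.10 ± 0.16, adjusted p = 0.705). The calcium pump gene Atp2a2 differed by -0.06 ± 0.09 (adjusted p = 0.699), and Ankrd1 by 0.29 ± 0.12 (adjusted p = 0.123). These 4 probes lay at a mean log2 scanner intensity of 15 or more, where the highest value of any array was 16.1, so differences between them can be compressed.

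**Figure D3:**
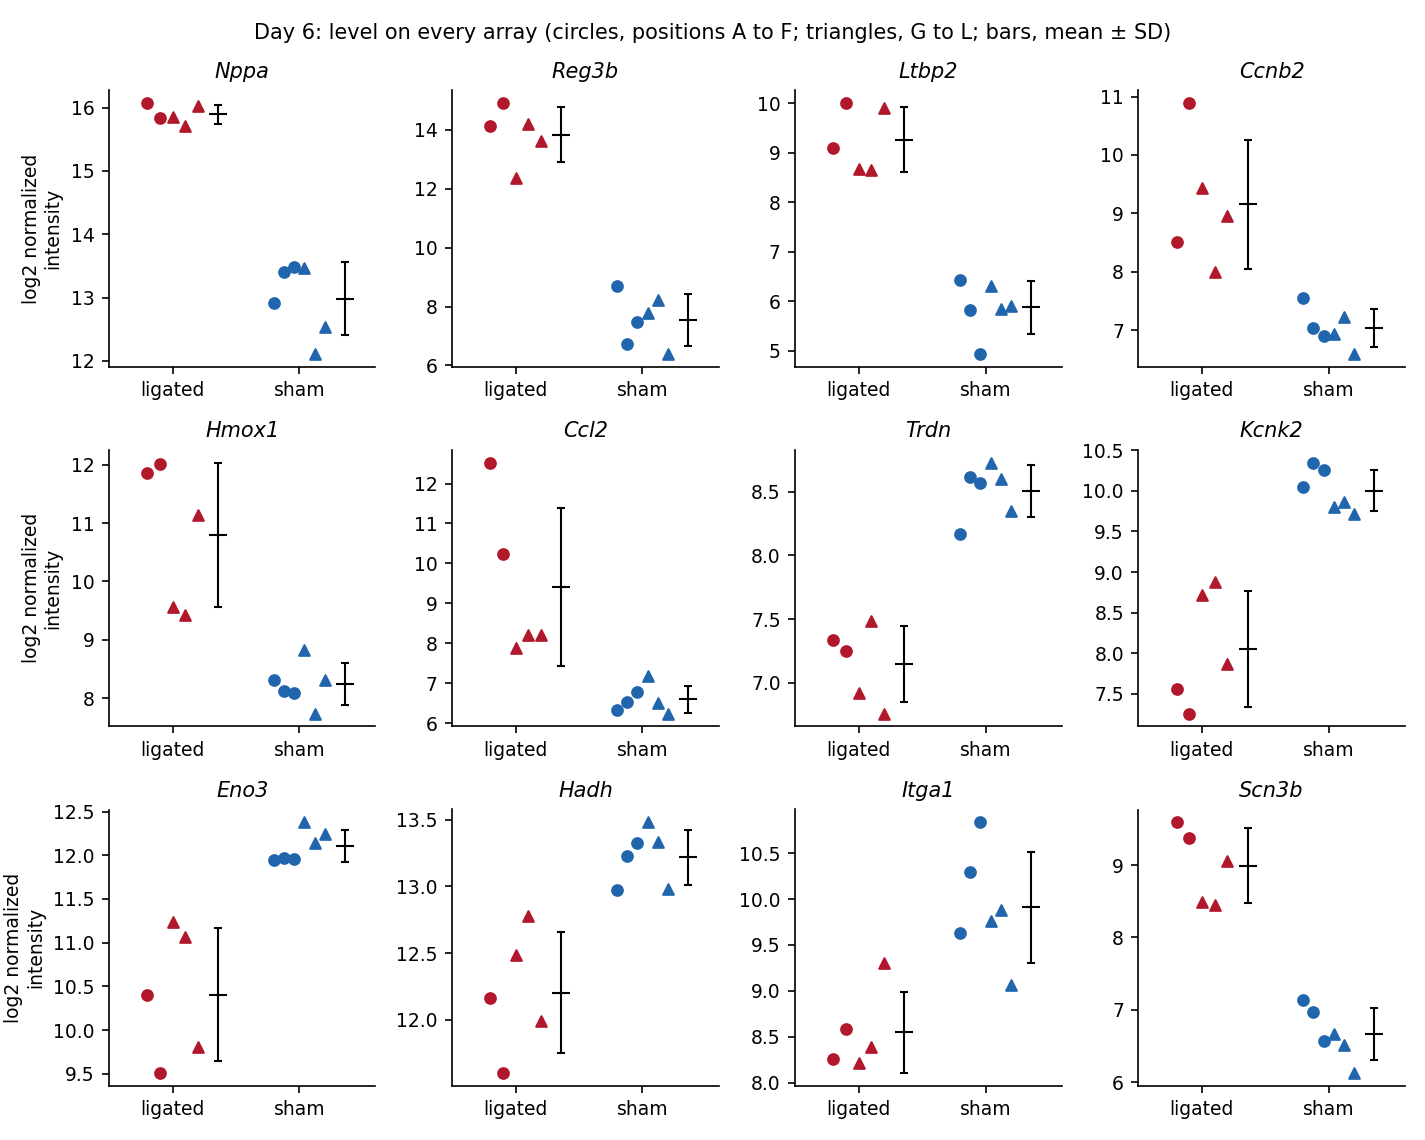
Log2 normalized intensity (y axis) of 12 genes on each day 6 array, ligated left and sham right, circles for positions A to F and triangles for G to L, with mean ± SD beside each group (n = 5 and 6). The groups overlap in Itga1 alone of these 12, and in Ccl2, Hmox1 and Kcnk2 ligated 1 and 2 are farthest from sham.

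The sarcomere list, by contrast, held 2 risers and 0 falls among 14 tested genes, with a median of -0.02. The medians had opposite signs in the position sets, -0.245 within A to F and 0.247 within G to L, and so had those of the cardiomyocyte markers, -0.238 within A to F and 0.161 within G to L. The larger of the 2 was Mybpc2, which encodes the myosin binding protein C of fast skeletal muscle. It read 10.01, 10.48, 8.18, 8.38 and 9.48 in ligated ventricles, against 6.14, 6.31 and 6.57 in sham ventricles (2.96 ± 0.35, adjusted p = 0.000471). The lowest ligated value was well above the highest sham value. The other was Myl1, a fast skeletal light chain gene. The summed level of the skeletal muscle markers tested, 4 of 13 listed, was 9.31 to 10.72 in ligated ventricles and 8.21 to 8.36 in sham ventricles. The sum adds linear levels, and most of its rise came from Mybpc2. The median log2 fold change of the 4 markers was 0.429. The other 2 markers, not called, were also above 0.

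Matrix genes were among the larger rises. Of 31 matricellular and microfibril genes 13 rose and 2 fell (median 0.65, with 0.646 within A to F and 0.58 within G to L; 7 rises under median scaling; 12 to 16 rises with single arrays left out). Ltbp2, a fibrillin-binding protein of the latent TGF-beta binding family, read 9.10, 10.002, 8.68, 8.64 and 9.91 in ligated ventricles, against 4.93, 5.88 and 6.43 in sham ventricles. That is a 10.5-fold rise (3.39 ± 0.30, adjusted p = 5.4e-05), with detection on 3 of 6 sham arrays. Fn1, which encodes fibronectin, read 11.40 to 12.95, against 9.63 to 10.17 (2.18 ± 0.27, adjusted p = 0.00054), and its change was alike in both position sets, 2.22 and 2.21. Cthrc1, secreted by activated fibroblasts, rose 9.08-fold and Postn, which encodes periostin, 10.6-fold.

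Genes that build or cross-link collagen rose by less. Of 27 tested genes 9 rose and 0 fell, with medians of 0.49 in all, 0.50 in A to F and 0.51 in G to L (2 rises under median scaling; 5 without ligated 5 to 11 without ligated 1). Col8a1, which encodes a short-chain collagen of vessel walls, read 10.93, 12.17, 10.68, 10.63 and 12.36, against 8.70, 9.22 and 10.29, and so rose by 2.02 ± 0.37 (adjusted p = 0.0067). Col18a1, the precursor gene of endostatin, rose by 1.55 ± 0.20, and Plod2, a lysyl hydroxylase that sets collagen cross-links, by 1.55 ± 0.28. The fibrillar chains themselves changed less evenly. Col1a1 read 10.71, 12.46, 11.51, 10.98 and 11.96 in ligated ventricles, against 10.23, 10.36 and 10.74 in sham ventricles (1.09 ± 0.26, adjusted p = 0.0209), and the call was lost without ligated 5 (0.98, adjusted p = 0.0573). Col3a1 did not pass, at 11.45, 13.23, 13.17, 12.09 and 13.58, against 11.59, 12.38 and 12.56 (0.43 ± 0.34, adjusted p = 0.431), with ligated 1 below every sham array.

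Among 17 matrix protease and inhibitor genes 7 rose and 0 fell (median 0.49, with 0.73 within A to F and 0.41 within G to L; 1 rise under median scaling; 4 without ligated 2 to 8 without ligated 4). Timp1, an inhibitor of matrix metalloproteinases, read 13.75, 13.75, 11.05, 11.44 and 12.77, against 9.39, 9.61 and 9.64, and rose 8-fold (3 ± 0.43, adjusted p = 0.00193). Mmp23, a membrane-anchored metalloproteinase, rose by 1.06 ± 0.20. The lysosomal cathepsin genes Ctsk and Ctsb each rose by 0.85, with SE of 0.16 and 0.18. In the TGF-beta and activin list 3 of 17 genes rose, 0 fell and the median was 0.10 (2 rises without ligated 2). Tgfb2, a ligand, read 9.82 to 11.10 in ligated ventricles, against 7.92 to 8.80 in sham ventricles (2.06 ± 0.25, adjusted p = 0.000471). Fstl3, a secreted protein that binds activins, read 10.03, 9.99, 8.88, 8.71 and 9.17, against 7.80, 8.08 and 8.24 (1.32 ± 0.23, adjusted p = 0.00566). The basement membrane list held 6 tested genes, of which 1 fell (Agrn) and 0 rose.

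The gp130 and acute phase list had the highest median of the pathway lists, 1.11, with 9 of 16 tested genes higher and 0 lower. Cytokines of the interleukin-6 family signal through gp130 to the transcription factor STAT3. The count was 5 under median scaling and 7 to 9 with single arrays left out, and the medians were 1.94 within A to F and 0.61 within G to L. Reg3b, a secreted lectin, read 14.12, 14.90, 12.36, 14.18 and 13.60 in ligated ventricles, against 6.38, 7.64 and 8.69 in sham ventricles, a 77.8-fold difference (6.28 ± 0.46, adjusted p = 2.06e-05). Its lowest ligated value, in ligated 3, exceeded the highest sham value by more than 3 log2 units. Hamp, which encodes the iron hormone hepcidin, read 11.93, 13.68, 10.41, 11.48 and 12.07, against 8.88, 9.76 and 10.38 (2.22 ± 0.46, adjusted p = 0.0112). Here ligated 3 sat just above the sham range. Mt1, a metal-binding metallothionein, read 14.999, 13.84, 10.41, 12.14 and 13.11, against 9.62, 10.03 and 10.99 (2.82 ± 0.61, adjusted p = 0.0137), with ligated 3 inside the sham range. Lbp, the lipopolysaccharide binding protein of the acute phase response, read 9.31, 8.30, 7.68, 7.65 and 9.24, against 5.87, 6.42 and 6.72 (2.09 ± 0.31, adjusted p = 0.00218). Stat3 rose by 0.73 ± 0.14 (adjusted p = 0.00956).

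The promoters of 3 of these genes are shown for their motifs. Reg3b and Hamp carry a STAT motif, and Mt1 carries metal response cores. The 250 bases before the start of transcription are given 5′ to 3′ from the RefSeq table of build GRCr8, which had an entry for 8 of the 9 called members. In Reg3b (chr4:112419526-112419775, plus strand) and Hamp (chr1:95300272-95300521, minus strand), capitals mark TTCNNNGAA, the palindrome that STAT factors recognise, searched on both strands, on which it reads alike. In Mt1 (chr19:10832976-10833225, minus strand), capitals mark TGCACNC or TGCGCNC, the core of metal response elements, in either direction.
Reg3b: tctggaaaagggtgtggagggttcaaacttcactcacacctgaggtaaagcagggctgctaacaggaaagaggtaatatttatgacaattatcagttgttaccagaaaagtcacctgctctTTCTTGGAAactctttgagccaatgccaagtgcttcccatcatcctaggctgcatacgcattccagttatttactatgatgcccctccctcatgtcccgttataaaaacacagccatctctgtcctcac
Hamp: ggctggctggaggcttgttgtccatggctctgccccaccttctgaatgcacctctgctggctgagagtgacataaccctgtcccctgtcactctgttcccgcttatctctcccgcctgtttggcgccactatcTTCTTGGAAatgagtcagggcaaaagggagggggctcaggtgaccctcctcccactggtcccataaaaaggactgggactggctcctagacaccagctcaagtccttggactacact
Mt1: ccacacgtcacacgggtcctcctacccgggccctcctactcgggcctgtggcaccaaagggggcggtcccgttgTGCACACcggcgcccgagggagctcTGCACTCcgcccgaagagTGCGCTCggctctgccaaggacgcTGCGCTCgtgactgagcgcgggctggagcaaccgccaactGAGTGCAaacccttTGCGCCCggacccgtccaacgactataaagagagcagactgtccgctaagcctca
Reg3b and Hamp hold the same 9 letters, TTCTTGGAA. TTCNNNGAA was found in 2 of the 8 called members with an entry, in 0 of 4 members that were not called, and in 7.7% of all 33469 promoters of the table (6% of those of the genes tested at day 6). The Mt1 window holds 6 metal response cores, and 20.6% of all promoters, or 31.8% of those of the genes tested at day 6, hold at least 1. Of the 8 called members with an entry, 3 hold at least 1. These matches are descriptions of the letters and were looked at with the values known.

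Most complement genes tested rose. Of 12 tested 8 rose and 0 fell (median 0.855, with 1.179 within A to F and 0.766 within G to L; 1 rise under median scaling; 5 without ligated 5 to 9 without ligated 3). C4b, the complement component cleaved in the classical and lectin pathways, read 8.83, 8.84, 8.53, 9.08 and 9.80 in ligated ventricles, against 6.09, 7.08 and 7.199 in sham ventricles (2.10 ± 0.24, adjusted p = 0.000303). Its change was larger in G to L (2.46) than in A to F (1.68). The genes of the 3 chains of C1q, the starter of the classical pathway made mainly by macrophages, also rose. C1qc read 11.10, 11.09, 9.71, 10.09 and 10.75, against 8.69, 9.21 and 9.54 (1.37 ± 0.25, adjusted p = 0.00674), and C1qb and C1qa rose by 1.38 ± 0.32 and 1.11 ± 0.26. For C1qb and C1qa, ligated 3 lay inside the sham range.

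Macrophage markers also rose. C1qa, C1qb and C1qc count in this list as well as among the complement genes, so the rises of the lists overlap in part. Of 15 tested 10 rose, 0 fell and all 15 were above 0, with a median of 1.11 (1 rise under median scaling; 5 without sham 4 to 13 without ligated 3). Their summed log2 level was 13.50 to 15.80 in ligated ventricles and 13.05 to 13.39 in sham ventricles, and the median change was 1.71 within A to F and 0.73 within G to L. Lgals3, the gene of galectin-3, read 13.04, 14.18, 11.15, 12.03 and 12.95, against 10.39, 10.68 and 10.84 (2.01 ± 0.39, adjusted p = 0.00896). Mrc1, a mannose receptor of resident macrophages, read 10.08, 10.46, 8.25, 8.54 and 9.30, against 7.37, 7.75 and 8.01 (1.65 ± 0.34, adjusted p = 0.0113). In bulk tissue more cells of a type and more RNA of these genes in each cell cannot be told apart. The part of the macrophage share in the complement, cathepsin and chemokine values was not tested.

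Other marker lists moved less. The 9 cardiomyocyte markers tested held 0 calls, and their summed level was 18.17 to 18.47 in ligated ventricles and 18.26 to 18.48 in sham ventricles. The 9 endothelial markers also held 0 calls, at 13.14 to 13.36, against 13.29 to 13.47. In limma's test 0 is the count after adjustment, and 2 cardiomyocyte and 3 endothelial markers had an unadjusted p under 0.05. A second, dimmer probe of the endothelial marker Tie1 was called lower (-0.41 ± 0.12, adjusted p = 0.0443). The brighter probe that represents Tie1 was not (-0.24 ± 0.16, adjusted p = 0.345). Of 14 fibroblast markers 3 rose, 0 fell and 3 were below 0, and their summed level overlapped, at 16.27 to 16.91, against 16.23 to 16.65. Of 5 smooth muscle and pericyte markers 3 rose, 0 fell and 2 were below 0. Their summed level was at least 15.45 in ligated ventricles and at most 15.26 in sham ventricles. With the position set as a block, 1 marker of each of these lists was called lower. Among the risers was Tagln, an actin-binding protein of smooth muscle and of activated fibroblasts (1.18 ± 0.26). The 2 neutrophil markers tested were not called, and their summed level ran from 7.52 to 12.72 in ligated ventricles, against 7.87 to 9.32 in sham ventricles. Ligated 1 and 2, which also had the highest Ccl2 and Ccl7 values, were at 11.74 and 12.72, and ligated 3, 4 and 5 at 9.06, 8.01 and 7.52. The part of these cells in the chemokine values was not tested. Lower were Klrd1, a natural killer cell receptor (-1.32 ± 0.30), and Tpsb2, a mast cell tryptase (-1.04 ± 0.25). Klrd1 was the 1 called of 7 T and NK cell markers tested, of which 1 was above 0. Tpsb2 was the 1 called of 4 mast cell markers tested, of which 0 were above 0. Wt1, a transcription factor of the epicardium, was also lower (-0.74 ± 0.17) and was the only marker of its list tested. Irx3, a transcription factor of the ventricle (-0.60 ± 0.14), was the 1 called of 4 ventricular markers, of which 2 were above 0. Klrd1, Tpsb2 and Wt1 were each detected on 1 of 5 ligated arrays and 5 of 6 sham arrays, so their levels lie near background. The atrial markers tested, 2 of 6 listed, spanned 7.97 to 11.80, against 8.63 to 11.33, a wide spread in both groups. No B cell marker passed the detection filter.

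Chemokine and cytokine genes were uneven between ligated samples. Of 23 tested 5 rose and 1 fell (median 0.54; 1 rise under median scaling; 2 without ligated 2 to 9 without ligated 3), and the medians were 0.89 within A to F and 0.20 within G to L. Ccl2, the main attractant of monocytes, read 12.52, 10.23, 7.89, 8.21 and 8.21 in ligated ventricles, against 6.25, 6.53 and 7.18 in sham ventricles (2.81 ± 0.67, adjusted p = 0.0199). Every ligated value was above the sham range, but the distance was 4.82 in A to F and 1.46 in G to L, and the call was lost without ligated 2 (2.60, adjusted p = 0.0506). Ccl7, a neighbouring chemokine of the same receptor, behaved alike at 11.40, 9.08, 6.70, 7.18 and 7.88, against 5.53, 5.96 and 6.62 (2.44 ± 0.65, adjusted p = 0.0317), with detection on 3 of 6 sham arrays. Its call was lost in 6 of the 11 fits that left out an array, with adjusted p up to 0.0719 without ligated 2. Receptor genes rose too. Tnfrsf12a, which encodes the receptor of the cytokine TWEAK, read 12.19, 11.14, 11.13, 10.98 and 11.28, against 8.83, 9.29 and 9.78 (2.05 ± 0.23, adjusted p = 0.000293), and Tnfrsf1a, a receptor of tumour necrosis factor, rose by 0.98 ± 0.18.

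Among haem, iron and redox genes more were called higher than lower. The share called lower lay below the 5.81% of all genes. In the list of 47, 7 rose and 2 fell (median 0.12, with 0.191 within A to F and 0.052 within G to L; 2 rises under median scaling; 4 rises without ligated 5 to 8 without ligated 3). Hmox1, the enzyme that degrades haem, read 11.86, 12.01, 9.56, 9.42 and 11.14 in ligated ventricles, against 7.74, 8.22 and 8.83 in sham ventricles (2.56 ± 0.44, adjusted p = 0.00481). All 5 ligated values were above the sham range, with ligated 3 and 4 nearest to it. Gclc, the rate-limiting enzyme of glutathione synthesis, rose by 0.90 ± 0.13 and Ftl1, the ferritin light chain gene, by 1.21 ± 0.27. Hjv, which encodes hemojuvelin, a co-receptor upstream of hepcidin in the liver, fell by 0.67 ± 0.11 (adjusted p = 0.00471), while Hamp itself rose.

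Immediate early genes included 5 rises and 1 fall among 33 tested (median 0.33, with 0.583 within A to F and 0.138 within G to L; 1 rise under median scaling; 2 rises without ligated 2 to 6 without ligated 3). Junb, a subunit of AP-1, read 12.54, 11.30, 9.57, 9.94 and 10.65, against 8.59, 9.29 and 9.52 (1.57 ± 0.42, adjusted p = 0.0319), and its call was lost in 6 of the 11 fits that left out an array, with adjusted p up to 0.0718 without ligated 2. Atf3, a stress-induced transcription factor, rose by 1.14 ± 0.23 (adjusted p = 0.0104). Runx1, a transcription factor of blood cells that also appears in stressed heart muscle, read 8.45, 9.11, 7.23, 7.51 and 8.61, against 5.92, 6.30 and 6.75 (1.88 ± 0.30, adjusted p = 0.00319). Dusp1, a phosphatase that switches off MAP kinases, fell by 0.66 ± 0.16 (adjusted p = 0.0203).

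Genes of cell division were higher in ligated ventricles. Of 34 tested 14 rose and 1 fell (median 0.73, with 1.098 within A to F and 0.534 within G to L; 2 rises under median scaling; 10 to 19 rises with single arrays left out). Ccnb2, the B-type cyclin of mitotic entry, read 8.51, 10.89, 9.44, 8.003 and 8.95 in ligated ventricles, against 6.59, 6.99 and 7.55 in sham ventricles (2.12 ± 0.39, adjusted p = 0.00724). Cdk1, its kinase partner, named here after its values were seen, read 8.38, 10.53, 9.25, 7.06 and 8.30, against 6.36, 6.52 and 7.23 (2.03 ± 0.46, adjusted p = 0.0159). Ube2c, a ubiquitin-conjugating enzyme of mitotic exit, read 7.22, 8.50, 7.88, 6.17 and 7.13, against 5.29, 5.53 and 6.15 (1.74 ± 0.33, adjusted p = 0.00813), and was detected on 2 of 6 sham arrays. In all 3 genes ligated 2 was highest, ligated 3 second and ligated 4 lowest. Mcm6, a subunit of the replicative helicase, and Fen1, a nuclease of DNA replication, rose by 1.08 ± 0.24 and 0.78 ± 0.17. The 1 gene that fell was Cdkn1b, which encodes the cell cycle inhibitor p27. It read 7.58 to 7.77 in ligated ventricles, against 8.13 to 8.31 in sham ventricles (-0.58 ± 0.09, adjusted p = 0.00368), a small change with little spread in either group.

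The promoters of Ccnb2, Cdk1 and Prc1, a spindle protein gene that rose by 1.76 ± 0.40, are shown because they share 2 motifs of mitotic genes. Capitals mark CCAAT, bound by NF-Y, and TTTGAA, a core of the cell cycle homology region, each in either direction (ATTGG and TTCAAA). The windows are the 250 bases before the start in GRCr8: chr8:79981659-79981908 on the minus strand for Ccnb2, chr20:19265043-19265292 on the plus strand for Cdk1 and chr1:143659231-143659480 on the plus strand for Prc1.
Ccnb2: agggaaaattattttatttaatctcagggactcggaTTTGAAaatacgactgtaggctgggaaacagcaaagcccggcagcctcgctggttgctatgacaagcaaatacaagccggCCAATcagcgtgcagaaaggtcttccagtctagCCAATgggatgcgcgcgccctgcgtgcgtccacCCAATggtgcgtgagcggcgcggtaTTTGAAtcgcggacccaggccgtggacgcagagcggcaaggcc
Cdk1: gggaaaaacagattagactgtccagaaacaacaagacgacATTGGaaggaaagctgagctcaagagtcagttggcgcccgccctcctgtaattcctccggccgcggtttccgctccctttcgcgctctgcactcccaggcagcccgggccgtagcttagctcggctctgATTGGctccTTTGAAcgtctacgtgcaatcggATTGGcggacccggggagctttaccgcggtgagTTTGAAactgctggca
Prc1: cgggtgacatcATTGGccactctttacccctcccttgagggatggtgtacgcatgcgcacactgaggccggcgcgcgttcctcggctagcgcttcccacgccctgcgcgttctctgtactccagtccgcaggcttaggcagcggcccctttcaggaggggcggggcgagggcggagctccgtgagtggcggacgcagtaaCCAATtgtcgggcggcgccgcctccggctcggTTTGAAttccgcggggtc
Ccnb2 and Cdk1 hold 3 CCAAT boxes each and Prc1 holds 2, and the last TTTGAA begins 43, 16 and 18 bases before the start. Both motifs were found in 8 of the 10 cell cycle genes that rose and had an entry in the table, and in 2 of 17 that were not called. Both were held by 5.9% of all 33469 promoters, and among the genes tested at day 6 with an entry the share was 3.5%. As with the motifs above, this describes the letters of the windows only. The motifs of antioxidant response (TGACNNNGC or TGAGNNNGC, in 22.8% of all promoters) and the CArG box of serum response factor (in 1.5%) were also searched. They were held by 3 and 1 of the 10, and by 4 and 0 of the 8 called gp130 and acute phase genes with an entry.

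Some genes of protein synthesis rose by small amounts, and under median scaling the rises in each list of this paragraph numbered 0. Of 36 ribosome biogenesis genes 7 rose and 0 fell (median 0.19; 5 without sham 4 to 8 without ligated 3), including Gar1, a subunit of the pseudouridylation complex (0.75 ± 0.15), Mrto4, a ribosome assembly factor (0.68 ± 0.12), Npm1, a nucleolar chaperone (0.60 ± 0.14), and Ncl, the gene of nucleolin (0.53 ± 0.11). Of 38 translation factors and tRNA synthetases 4 rose and 0 fell (2 without ligated 5 to 6 without ligated 3), among them Eef1b2 (0.62 ± 0.14) and Yars1 (0.54 ± 0.10). The share of this list called in either direction lay below the 11.8% of all genes. Of 30 endoplasmic reticulum genes 6 rose and 0 fell (median 0.30; 3 without ligated 5 to 8 without ligated 1), such as Sdf2l1, a luminal chaperone factor (0.68 ± 0.14), and Rpn2, a subunit of the oligosaccharyltransferase (0.52 ± 0.12). Of 36 proteasome and ubiquitin ligase genes 0 rose and 1 fell (Asb10). Of 21 cytosolic chaperone genes 3 rose, and of 23 antigen presentation and interferon genes 3 rose, with 0 falls in either list. In both lists the share called in either direction lay near the 11.8% of all genes. In the circadian list of 10, Usp2, a clock-controlled ubiquitin protease, fell and Tspan4, a tetraspanin and not a clock gene, rose. The ribosome, translation and endoplasmic reticulum medians were larger within A to F than within G to L.

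Cytoskeletal genes rose without a called fall. Of 31 tested 12 rose and 29 were above 0 (median 0.45, with 0.702 within A to F and 0.302 within G to L; 1 rise under median scaling; 6 without sham 2 to 13 without ligated 3). S100a4, a calcium-binding protein of migrating cells, read 12.04, 13.78, 11.42, 11.15 and 11.78, against 9.85, 9.91 and 9.97 (2.12 ± 0.35, adjusted p = 0.00423), with the sham samples close together. Tubb6, a beta-tubulin, read 10.49, 10.93, 9.52, 9.37 and 9.87, against 8.28, 8.55 and 8.79 (1.503 ± 0.25, adjusted p = 0.00371). The actin regulators Arpc1b and Pfn1 rose by 0.89 ± 0.18 and 0.73 ± 0.14, and Anxa2, a membrane-binding annexin, by 0.88 ± 0.20. Among 19 integrin and costamere genes 2 rose and 2 fell. Itgb1, the beta chain shared by matrix-binding integrins, read 11.39 to 11.94 in ligated ventricles, against 10.66 to 10.87 in sham ventricles (0.87 ± 0.12, adjusted p = 0.00171). Itga1, one of its collagen-binding alpha partners, went the other way at 8.26, 8.58, 8.21, 8.39 and 9.30, against 9.06, 9.82 and 10.84 (-1.36 ± 0.28, adjusted p = 0.0115).

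Falls were counted in lists of fuel use, conduction and calcium. Of 54 tested genes of fatty acid uptake and oxidation 18 fell, 1 rose and 48 were below 0, with a median of -0.47. The medians were -0.68 within A to F and -0.35 within G to L. The number of falls was 2 under median scaling, 21 when arrays were scaled to the tested probes, and from 7 without ligated 5 to 27 without ligated 4. Hadh, the mitochondrial hydroxyacyl-CoA dehydrogenase of beta-oxidation, read 12.17, 11.60, 12.49, 12.78 and 11.99 in ligated ventricles, against 12.97, 13.27 and 13.48 in sham ventricles (-1.01 ± 0.19, adjusted p = 0.00724). Acsl1 and Acsl6, which activate long-chain fatty acids as acyl-CoA, fell by 0.72 ± 0.14 and 1.23 ± 0.24. Echdc2, a mitochondrial hydratase family member, and Dgat1, the last enzyme of triglyceride synthesis, each fell by 0.65, with SE of 0.12 and 0.14. In all 5 genes the groups did not overlap, and ligated 2 was lowest. The list also held falls of Ppara, the nuclear receptor that drives these genes, and of Cpt2, Acadm and Acadvl. The 1 riser was Plin2, a lipid droplet coat protein, at 12.01, 12.36, 11.17, 11.23 and 11.69, against 10.70, 10.82 and 11.08 (0.85 ± 0.19, adjusted p = 0.017). It falls outside the rule for named genes and is given as the only one to rise.

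Other mitochondrial lists lay on the same side with fewer calls. Of 39 genes of the citric acid cycle and amino acid breakdown 9 fell and 1 rose (median -0.39, with -0.605 within A to F and -0.259 within G to L; 1 fall under median scaling; 4 falls without ligated 5 to 12 without ligated 3). Gpt, an alanine aminotransferase, read 7.83, 7.58, 9.20, 8.96 and 8.38, against 9.74, 9.86 and 10.13 (-1.51 ± 0.25, adjusted p = 0.00433). Acat1, the thiolase of ketone and isoleucine breakdown, and Mccc1, a leucine pathway carboxylase, each fell by 0.63 ± 0.14. The riser was Idh3b, a subunit of isocitrate dehydrogenase (0.61 ± 0.13). Of 54 respiratory chain and ATP synthase genes 2 fell (Uqcrb and Atp5f1c) and 0 rose, although 50 of 54 were below 0 (median -0.28). That count was 0 without ligated 5 and 9 without ligated 3. Of 51 mitochondrial carrier, import and ribosome genes 4 fell, 0 rose and 45 were below 0 (median -0.21), with 0 falls without ligated 2 and 7 without ligated 3. In this list and the respiratory chain list, the share called in either direction lay below the 11.8% of all genes.

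Genes of sugar use were called in both directions, and the share called higher lay near the 5.95% of all genes. Of 35 tested 3 rose and 6 fell (median -0.14, with -0.317 within A to F and -0.071 within G to L; 1 rise and 2 falls under median scaling; 3 falls without ligated 5 to 10 without ligated 3). Eno3, the muscle enolase, read 10.40, 9.51, 11.24, 11.07 and 9.81 in ligated ventricles, against 11.94, 12.05 and 12.38 in sham ventricles, 3.25-fold lower (-1.70 ± 0.27, adjusted p = 0.00351). Eno2, the enolase isoform first known from neurons, rose to 7.19 to 7.90, against 6.31 to 7.05 (0.78 ± 0.17, adjusted p = 0.0134). Slc16a3, a lactate exporter, read 9.01, 10.12, 8.92, 8.19 and 9.40, against 7.22, 7.45 and 7.63 (1.68 ± 0.26, adjusted p = 0.00278). Pfkp, the platelet-type phosphofructokinase, rose by 0.73 ± 0.17. Phkg1, the muscle catalytic subunit of phosphorylase kinase, which starts glycogen breakdown, fell by 0.84 ± 0.13 and was detected on 3 of 5 ligated arrays.

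More ion channel genes fell than rose. Of 23 tested 8 fell and 1 rose (median -0.39, with -0.493 within A to F and -0.433 within G to L; 5 falls under median scaling; 6 to 9 falls with single arrays left out). Kcnk2, the stretch-activated potassium channel TREK-1, read 7.56, 7.26, 8.72, 8.88 and 7.87, against 9.71, 9.95 and 10.35, a 3.86-fold fall (-1.95 ± 0.27, adjusted p = 0.0016). Kcnd3, a pore subunit of the transient outward current, read 5.60 to 6.24, against 6.63 to 7.22 (-0.99 ± 0.15, adjusted p = 0.00264), with detection on 3 of 5 ligated arrays. Scn4b, a beta subunit of sodium channels, read 8.88, 9.09, 9.67, 9.48 and 10.33, against 10.35, 10.82 and 11.27 (-1.29 ± 0.24, adjusted p = 0.00724). Cacna1h, a T-type calcium channel, read 5.18 to 5.24 in 4 ligated samples and 6.48 in ligated 3, against 6.14, 6.49 and 6.95, and was detected on 1 of 5 ligated arrays (-1.04 ± 0.24, adjusted p = 0.0176). The 1 that rose was Scn3b, another sodium channel beta subunit, at 9.60, 9.37, 8.49, 8.45 and 9.06, against 6.12, 6.62 and 7.13, a 5.03-fold rise (2.33 ± 0.23, adjusted p = 0.000125). Scn3b and Scn4b therefore changed in opposite directions in every ligated sample, without overlap with sham ventricles.

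Of 18 calcium handling genes 5 fell and 0 rose (median -0.44; 2 falls under median scaling; 3 without sham 1 to 5). Trdn, the gene of triadin, which anchors the ryanodine receptor to its calcium store, read 7.33, 7.25, 6.92, 7.48 and 6.76 in ligated ventricles, against 8.16, 8.58 and 8.73 in sham ventricles (-1.35 ± 0.15, adjusted p = 0.000303). Its change was -1.16 within A to F and -1.503 within G to L, whereas the list medians were -0.69 and -0.13. Adcy6, a cardiac adenylyl cyclase, fell by 0.78 ± 0.17 (adjusted p = 0.014). In the adrenergic, angiotensin and endothelin list 4 of 25 genes fell and 0 rose (median -0.10; 2 falls under median scaling; 2 without ligated 2 to 5 without ligated 3). Adra1b, an alpha-1 adrenergic receptor, read 10.91, 10.29, 11.40, 11.19 and 10.72, against 11.76, 11.90 and 12.12 (-1.002 ± 0.17, adjusted p = 0.00519). Apln, the peptide ligand apelin, read 6.67, 6.28, 9.11, 8.04 and 6.86, against 8.71, 9.01 and 9.54 (-1.69 ± 0.41, adjusted p = 0.022). Ligated 3 was at the sham level, and the call was lost without ligated 2 (adjusted p = 0.0514) and without ligated 5 (0.0585).

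Growth factor and vessel genes were evenly divided, 6 higher and 6 lower of 30 tested (median -0.24; 2 rises and 3 falls under median scaling; 2 rises without ligated 5 to 5, and 3 falls without sham 2 to 6). Fgf16, a heart-enriched fibroblast growth factor, read 8.82 to 9.52 in ligated ventricles, against 10.20 to 10.70 in sham ventricles (-1.20 ± 0.15, adjusted p = 0.000586). Igfbp5, a binding protein of insulin-like growth factors, fell by 0.98 ± 0.15 and Angpt1, a ligand that stabilises vessels, by 1.03 ± 0.22. Hbegf, a ligand of the epidermal growth factor receptor, was detected on all 5 ligated arrays and on 0 of 6 sham arrays, and was at least 1.99-fold higher in ligated ventricles (adjusted p = 0.00566). It passed the detection filter only through the ligated arrays, so that a difference had to follow. Such a bound sets the ligated mean against the lowest signal that counted as detected. Sfrp2, a secreted Wnt modulator of fibroblasts, read 6.84 to 8.16, against 5.08 to 6.65 (1.68 ± 0.31, adjusted p = 0.00634), and was detected on 2 of 6 sham arrays.

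The largest falls outside the lists were of varied function. Fam81a, a gene of little known function in heart, read 5.51, 5.31, 6.91, 5.77 and 5.74 in ligated ventricles, against 7.72, 7.94 and 8.21 in sham ventricles (-2.11 ± 0.23, adjusted p = 0.000289), and was detected on 1 of 5 ligated arrays and all 6 sham arrays. Cd1d1, which presents lipids to natural killer T cells, read 9.31, 9.31, 9.64, 9.26 and 9.24, against 10.61, 10.82 and 10.95 (-1.45 ± 0.11, adjusted p = 2.06e-05). Slc22a3, an uptake carrier for catecholamines and other organic cations, read 7.24, 7.41, 7.68, 7.11 and 6.52, against 8.52, 8.59 and 8.79 (-1.43 ± 0.17, adjusted p = 0.000485). In Cd1d1 and Slc22a3 the ligated samples were close together, and positions A to F and G to L gave -1.52 and -1.38 for Cd1d1 and -1.24 and -1.57 for Slc22a3. Igsf1, an immunoglobulin superfamily membrane protein, fell by 1.62 ± 0.18, Pdia2, a disulfide isomerase, by 1.59 ± 0.33 and Rev3l, the catalytic subunit of a DNA polymerase for damaged templates, by 1.44 ± 0.28. Fxyd3, a regulator of the sodium pump, read 5.22, 5.74, 7.37, 7.75 and 7.11, against 7.75, 8.10 and 8.89 (-1.57 ± 0.41, adjusted p = 0.0285). Its call was lost in 4 of the 11 fits that left out an array, with adjusted p up to 0.0673 without ligated 2.

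The difference between the position sets was tested directly for each probe, as an interaction of operation and position set that was added after the data had been seen. It was called for 250 probes, 105 above 0 and 145 below. Of the 753 genes called at day 6, 20 were also called here, and in all 20 the change was larger in A to F. That is 2.66% of the called genes, beside 196 of all 6404 genes (3.06%). They included Ccl2 (difference of log2 fold changes 3.37, adjusted p = 0.0394), Ccl7 (3.28, 0.0494), Junb (2.21, 0.0486), Fstl3 (1.40, 0.0253), Tubb6 (1.35, 0.0379), Kcnk2 (-1.51, 0.047) and Fxyd3 (-2, 0.0472). Over all called genes 559 of 753 (74.2%) changed by more in A to F than in G to L, beside 3973 of all 6404 genes (62.0%). Genes with like changes in both sets included Trdn, Cd1d1, Slc22a3, Fn1, Tgfb2 (2.12 and 2.07) and Cdkn1b (-0.59 and -0.58). With 2 ligated samples in one set and 3 in the other, a difference between samples and a difference between sets cannot be told apart. Brightness cannot be told apart from these either. It was higher in ligated than in sham arrays within A to F, and lower within G to L.

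**Figure D4:**
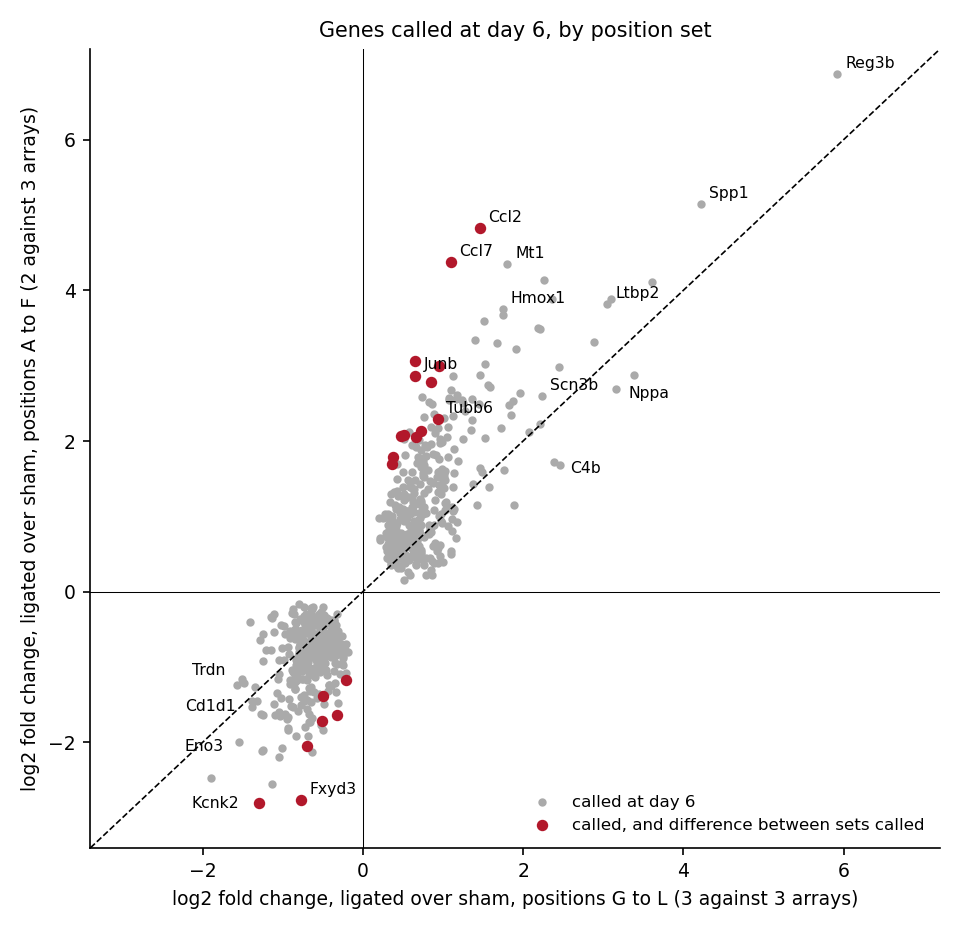
Log2 fold change (ligated over sham) of the 753 called genes within positions G to L (x axis) and A to F (y axis), with the line of equal change dashed and the 20 genes whose difference between sets was called in red. Most points lie on the steeper side of the line, while C4b, Nppa and Trdn lie on its other side.

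Day 6 was then set against the other days. Each day has its own sham samples, and at days 1 and 42 each operation filled its own position set, so set and operation cannot be told apart there. Of the 723 called genes with a value at day 1, 389 (53.8%) were called the same way at day 1 and 2 the opposite way. At day 1, 1765 of the 6083 genes with a value on both days were called, so the 389 made up 22.0% of them. Of 691 called genes with a value at day 42, 161 (23.3%) were called the same way and 5 the opposite way, and the 161 made up 18.1% of the 889 genes called at day 42. Those 889 were among 6028 genes with a value on both days. The larger number called at day 1 by itself allows a larger overlap with that day. Across probes the log2 fold changes of day 6 correlated at r = 0.668 with those of day 1 (8017 probes) and at 0.335 with those of day 42 (7984 probes).

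The difference between the effect at day 6 and that at day 1 was called for 30 of 6083 genes (0.493%), 15 above 0 and 15 below (0.247% each), and the difference from day 42 for 393 of 6028 (6.52%), 187 above 0 (3.10%) and 206 below (3.42%). Scaling to the median of all probes put the median difference over all probes at -0.28 for day 1, against 0.00482 with quantile normalization, and at 0.389 for day 42, against -0.03, and changed the split of called probes for day 42 to 522 above 0 and 24 below, against 256 and 305. For day 1 the called probes numbered 53, with 87 without ligated 1 and 30 without sham 6, and for day 42 they numbered 561, with 353 without ligated 1 and 332 without ligated 2. Differences are therefore read gene by gene. Of the 16 genes that differed from both days, 6 were called at day 6. The rule that the difference be called on both sides picked them after their values were seen. C4b rose by 2.10 at day 6, against 0.19 at day 1 and 0.47 at day 42, and Lbp by 2.09, against 0.02 and 0.35. Hmox1 rose by 2.56, against 0.35 and -0.37. Ccn3, a matricellular protein with growth-restraining effects on fibroblasts, rose by 1.11, against -0.82 and -0.10, and Grn, the gene of the lysosomal growth factor progranulin, by 0.79, against -0.14 and -0.13. Itga1 fell by 1.36, against 0.32 and 0.17. Under median scaling the difference from day 1 remained called for C4b, Lbp, Ccn3 and Itga1 (adjusted p = 0.0229, 0.0168, 0.00656 and 0.0048), but not for Hmox1 (0.0931) or Grn (0.36). For day 42 it remained called for 5 of the 6, and Itga1 missed it (0.0549). With its median differences of -0.28 and 0.389, this scaling favours differences below 0 for day 1 and above 0 for day 42. Which calls remained therefore depends in part on that shift.

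Genes that were already high at day 1 and had receded by day 42 included Reg3b, at 4.10, 6.28 and 1.40 on days 1, 6 and 42, and Postn, at 2.99, 3.40 and 0.69. In both the effect at day 6 exceeded that at day 42 (4.88, adjusted p = 0.00105, and 2.71, adjusted p = 0.00612), and neither difference from day 1 was called. Ccnb2 stood at 0.36, 2.12 and 0.26. Its difference from day 42 was called (1.85, adjusted p = 0.0164), and that from day 1 was not. Igfbp5 changed sign, at -0.21, -0.98 and 0.72 (difference from day 42 -1.70, adjusted p = 0.000306). Hspa5, the main chaperone of the endoplasmic reticulum, falls outside the rule for named genes. It was higher in ligated ventricles at day 1 (0.87), and at day 6 read 13.79 to 14.16, against 13.75 to 14.21 in sham ventricles, a difference of -0.03 ± 0.12 (adjusted p = 0.902). The day 6 effect lay 0.90 below that of day 1 (adjusted p = 0.00437). Nppa stood at 1.40, 2.91 and 3.12.

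**Figure D5:**
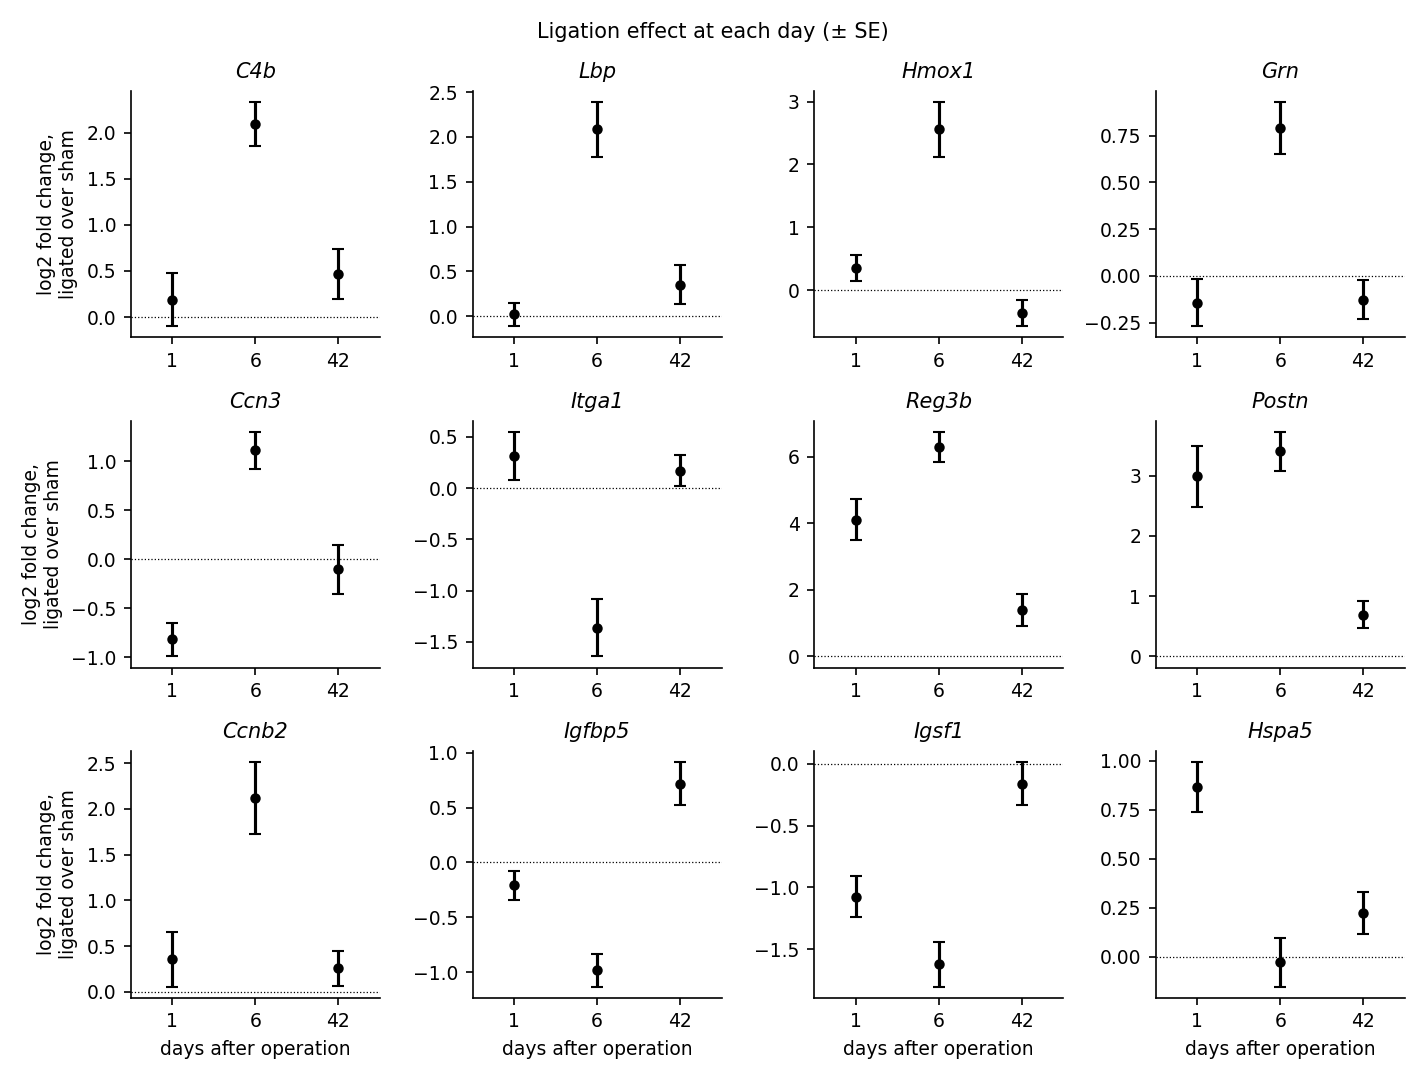
Log2 fold change (ligated over sham, y axis, ± SE) of 12 genes at 1, 6 and 42 days after operation (x axis), each day against its own sham samples. C4b, Lbp, Hmox1, Grn and Ccn3 peak at day 6 and Itga1 dips there, while Hspa5 is raised at day 1 and near 0 at day 6.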

How the data were processed

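Left ventricular RNA of 11 samples was measured at day 6. Per the file headers, the authors deposited the mean scanner intensity of each probe over its beads, a detection p-value and the number of beads (array medians 41 to 42), with no background correction or normalization. Deposited processed intensity values on a linear scale served as an alternative; their normalization is not given in the sources used here. BeadStudio 3.3 and GenomeStudio are named per the submitters' processing notes, without a role.

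The 4 columns of 1 day 6 array that matched no sample were not used. Intensities were background-corrected (normexp, offset 16), quantile normalized and put on the log2 scale in R 4.3.3 with limma 3.58.1, whose moderated test gave log2 fold changes, SE and Benjamini-Hochberg adjusted p-values. Probes needed a detection p under 0.01 on at least 5 of 11 arrays. A gene with several probes was represented by the one of highest mean level. Of 22523 probes, 13793 had 1 gene symbol, 0 had several and 8730 had none in the annotation used. The procedure was tested on simulated data with independent arrays and, for each probe, the same spread in both groups. The real ligated arrays were more spread than the sham arrays, a setting that the simulation did not cover. Precision is limited by how few arrays there are.

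Genes and lists were chosen with earlier results of these data known. Named genes are a selection from the 12 largest rises and falls, up to 5 called and 3 uncalled members of each list, and a fixed set of hypertrophy genes. Plin2, Cdk1, Prc1, Ccn3, Grn and Hspa5 were added after their values were seen. Alternatives covered background, scaling, filters, weights, blocks, position sets and single arrays left out. Scaling to the tested probes and the test between position sets were chosen after seeing the data.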

Additional observations from a re-analysis of the deposited data

Results flagged for a closer look

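Among 242 groups of gene levels, 9 had 1 array that lay far from the rest, by a Dixon test of the gap against the range. Ankrd1 was lowest in ligated 1 at 15.44, Anxa2 was highest in ligated 2 at 11.85 and Atf3 was highest in ligated 1 at 8.94. C4b was lowest in sham 6 at 6.09, Cacna1h was highest in ligated 3 at 6.48 and Cd1d1 was highest in ligated 3 at 9.64. Fam81a was highest in ligated 3 at 6.91, Junb was lowest in sham 2 at 8.59 and Tnfrsf12a was highest in ligated 1 at 12.19. All are log2 levels, and chance alone gives such a gap in about 1 in 20 groups, or about 12 here, so 9 is no more than chance gives. Ligated 3 was the array nearest to the sham level in Cacna1h, Cd1d1 and Fam81a.

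The effect of ligation at day 6 differed from that at day 1, in limma's interaction test, by 1.91 for C4b, 1.93 for Ccn3, 0.93 for Grn, 2.21 for Hmox1, -0.90 for Hspa5, -1.68 for Itga1, 2.07 for Lbp and -1.48 for Tpsb2. These and the following values are differences of log2 fold changes.

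The day 6 effect lay above that at day 42 by 0.91 for C2, 1.63 for C4b, 2.88 for Ccl2, 1.22 for Ccn3, 1.85 for Ccnb2, 2.20 for Cdk1, 1.23 for Col18a1, 0.89 for Ctsb, 0.89 for Eef1b2 and 0.86 for Eno2. The same held by 2.03 for Fn1, 0.92 for Grn, 2.92 for Hmox1, 1.74 for Lbp, 1.76 for Lgals3, 2.55 for Mt1, 2.17 for Mybpc2, 0.83 for Npm1, 0.88 for Pfkp and 1.12 for Pfn1. It also held by 0.87 for Plin2, 1.40 for Plod2, 2.71 for Postn, 1.68 for Prc1, 4.88 for Reg3b, 1.76 for Runx1, 1.75 for S100a4, 4.70 for Spp1, 2.32 for Thbs4, 2.25 for Timp1 and 0.78 for Tnfrsf1a. The day 6 effect lay below that at day 42 in these genes: -1.08 for Acsl6, -1.70 for Igfbp5, -1.46 for Igsf1 and -1.53 for Itga1.

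Between chip positions A to F and G to L the day 6 effect differed by 3.37 for Ccl2, 3.28 for Ccl7, 1.40 for Fstl3, -2 for Fxyd3, 2.21 for Junb, -1.51 for Kcnk2, -0.89 for Myh6 and 1.35 for Tubb6. Spp1, the gene of osteopontin, and Thbs4, a thrombospondin, are named here for their difference from day 42. Myh6 was not called at day 6, and its effects in the position sets had opposite signs. Position set and operation cannot be told apart at days 1 and 42, nor can order within a set and operation at day 6.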

How the results depend on the processing

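The 964 called probes at day 6 became 132 under median scaling of all probes (under 38% of probes were detected on average, so that median lies at background), 563 without a detection filter, which raised the number tested to 22523, 528 within positions G to L alone and 1627 with the spread shared with the other days. Leaving out 1 array gave 536 to 1188. Of the 115 called genes given with values, 53 remained called under median scaling, 114 on the deposited processed values and 109 in every fit that left out an array. All 115 remained called under scaling to the tested probes and with position set as a block. The count of differences from day 1 (53) was 34 under scaling to the tested probes and 30 to 87 with 1 array left out, and that from day 42 (561) was 332 to 780.

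Replicate numbers are shared between the groups, and the labels do not say whether they pair the samples. The correlations of same-numbered deviations were 0.237, -0.000386, -0.0133, -0.0869 and -0.27, and only number 1 correlated best with its own. The values thus gave little sign of pairing, but so few pairs cannot exclude it. A replicate block gave 341 called probes at day 6, 26 for the difference from day 1 and 301 for that from day 42.

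Signs turned only for values that were not called. Atp2a2 was 0.02535 on the deposited processed values, and Myh6 was -0.39 within A to F. Hspa5 was 0.002814 with the replicate block, 0.005432 within A to F, and 0.01913, 0.006845 and 0.003619 without ligated 3, sham 2 and sham 6 (-0.0854 to 0.01913 with 1 array left out). The brightness difference of ligated minus sham arrays was 11.82 at the 75th percentile, -0.08982 at the median, and -11.93 to 35.61 with 1 array left out, including -9.38 without ligated 2. The cause of these shifts was not tested. Probes near background or near the scanner's upper end limit how well small changes can be seen.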
